A study of Mus musculus with 6 samples.

Results

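Mitochondrial ribosomal protein genes were followed in liver RNA of mice on a high-fat diet that received vehicle or ONX-0914. They were taken as the rows of the deposited matrix of FPKM, read fragments scaled for gene length and library size, whose symbol begins with Mrpl or Mrps and a digit, without pseudogene symbols, which gave 78 of 22851 genes. All 6 libraries came from liver of male C57BL/6J mice, an inbred strain, on the high-fat diet (HFD). The control group got vehicle (vehicle 1, 2 and 4), and the treated group got ONX-0914, an inhibitor of the immunoproteasome subunit PSMB8, at 10 mg/kg under the skin every other day for 6 weeks (ONX-0914 1, 3 and 4). No age and no group on ordinary chow is given in the labels. The design text counts 2 biological replicates per group where 3 libraries are listed, so the p-values reflect only how much the listed libraries differ, which may in part be technical.

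The mitochondrial ribosome translates the few proteins that mitochondrial DNA encodes, all of them core parts of the respiratory chain and ATP synthase. Its ribosomal RNAs are made inside the organelle, whereas its proteins are encoded by nuclear genes, translated in the cytosol and imported. Many of these proteins have counterparts in bacterial ribosomes, and the others arose in the mitochondrial lineage. The liver, rich in mitochondria, depends on this machinery for fat oxidation, ketogenesis and the urea cycle.

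Library facts that touch these values were as follows. FPKM summed to between 993264 and 1247789 per library, and the read totals are unknown. Relative depth, read from whole-number steps of low values, was 1.00 to 1.29 with vehicle and 0.865 to 1.01 with ONX-0914. Among treated livers ONX-0914 3 differed from the rest: its median deviation from the vehicle mean over all 10743 tested genes was -0.38 on the log2 scale, against -0.74 and -0.79 in ONX-0914 1 and 4. Hepatocyte markers such as Alb summed to between 53259 and 83246 FPKM in the 6 libraries, and none of the 8 was at 0. The 8 moved unequally. By the limma test given below 1 was higher (Apoa1) and 3 lower (Cps1, Hnf4a and Apob), beside 2.56% and 43.5% of all genes. The 6 endothelial markers summed to 61.3 to 66.5 FPKM with vehicle and 3.28 to 10.1 with ONX-0914. Kupffer cell markers summed to 582 to 1018 with vehicle and 251 to 399 with ONX-0914. Stellate cell markers summed to 238 to 306 and 52.7 to 114, so these sums did not overlap either. Of single markers, 3 of 6 Kupffer and 3 of 5 stellate genes were lower without overlap, beside 53.5% of all genes. The Kupffer markers Clec4f and Marco overlapped, with log2 fold changes of -0.0078 and 0.14. Cd5l made up the largest part of the Kupffer sums with vehicle, at 549, 381 and 665 FPKM in vehicle 1, 2 and 4. It was 97.7, 115 and 126 in ONX-0914 1, 3 and 4, so the gap between those sums rests largely on this gene. The 5 neutrophil markers summed to 343, 285 and 1798 FPKM in the vehicle libraries 1, 2 and 4 and to 2111, 167 and 4670 in the treated libraries 1, 3 and 4. The part of cell composition in the results below was not tested, and in bulk tissue fewer cells of a type and less RNA per cell cannot be told apart.

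All 78 genes were expressed in every library. Their vehicle means ran from 10.2 FPKM for Mrpl47 to 303 for Mrpl12, a 29.8-fold range, with a median of 55.4, and 21 genes were above 100 FPKM. The order was led by Mrpl12, Mrps21, Mrpl33 and Mrps24. Mrpl12 encodes a protein of the stalk that recruits translation factors, and it was 256, 299 and 356 FPKM in vehicle 1, 2 and 4. Mrps21 was 244, 256 and 319, Mrpl33 was 224, 251 and 284, and Mrps24 was 168, 195 and 268. The ranges of neighbours in this order overlapped between libraries, but within each of the 3 vehicle libraries the 4 genes stood in the same order. At the other end, Mrpl47 was 8.55, 11.7 and 10.2 FPKM, Mrpl19 was 12.2, 11.97 and 14.9, and Mrps2 was 14.5, 16.9 and 13.2. The ranges of Mrpl19 and Mrps2 overlapped, and that of Mrpl47 lay below both. The gene means kept nearly the same order with ONX-0914 (Spearman 0.95 over 78 genes that share libraries, a description). The coefficient of variation had a median of 10.5% among vehicle libraries and 20.7% among treated ones.

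On the deposited FPKM scale the fold changes of the members lay around 0, while those of most tested genes lay below it. Of 78 members 5 rose and 4 fell, and 69 did not pass the test (limma on log2(FPKM + 1), adjusted p under 0.05 over all 10743 genes). Over all genes 2.56% were called higher and 43.5% lower. The median log2 fold change of the members was -0.0065, against -0.64 for all tested genes. Values were above 0 for 38 members and below 0 for 40, and 62 members lay within 0.5 of 0. The standard errors of single members were between 0.17 and 0.32, so a change of that size in one gene was not detectable here. The groups did not overlap in 11 members that were higher with ONX-0914 and in 12 that were lower, beside 4.93% and 53.5% of all genes. These counts rest on the scaling of the libraries. With median-ratio scaling, in which libraries are matched on their typical gene and which moves the median of all genes to -0.17, 26 members rose and none fell (9.64% and 18.7% of all genes), at a median of 0.58. No member was lower with an unadjusted p under 0.05 in that scaling.

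**Figure D1:**
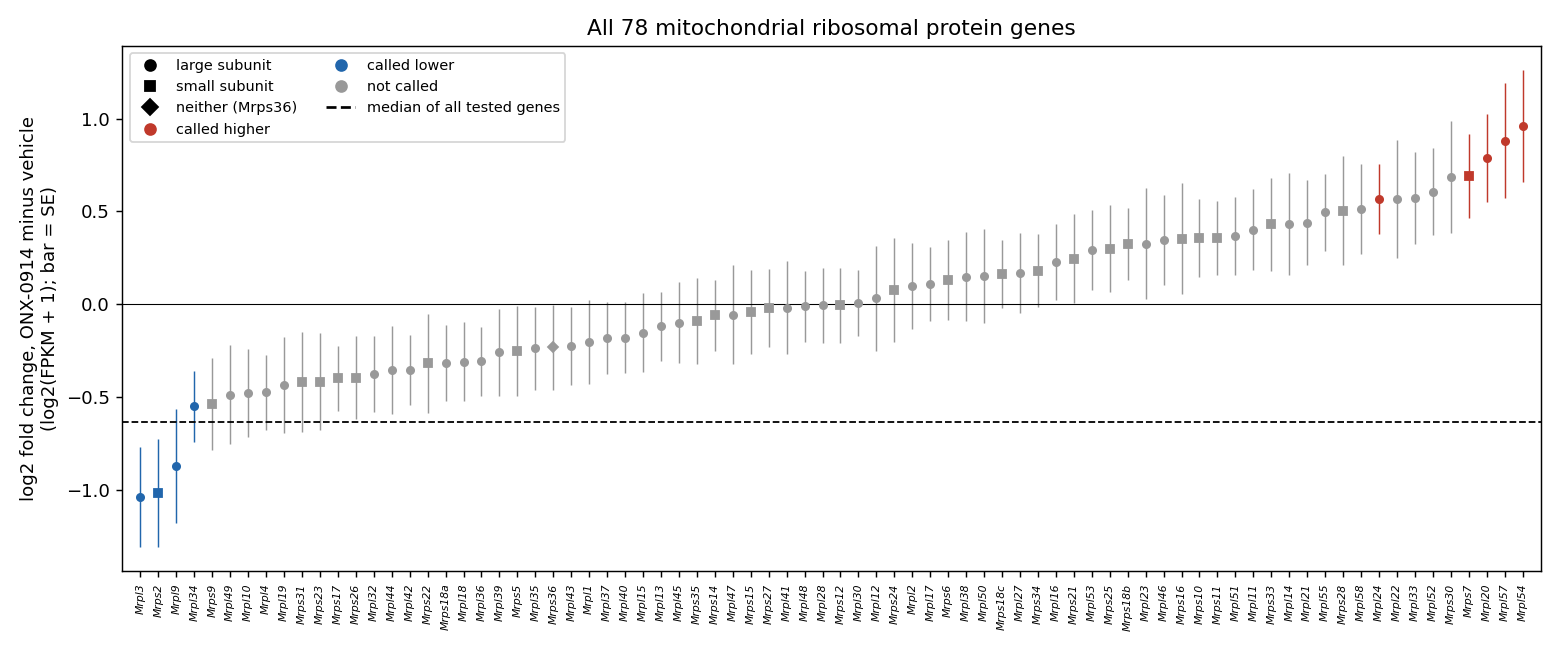
Log2 fold change (ONX-0914 minus vehicle, on log2(FPKM + 1), y axis) of each of the 78 genes in rising order, with bars of 1 SE from limma. The members are spread around 0, with 5 called higher (red) and 4 called lower (blue), while the dashed line marks the median of all tested genes at -0.64.

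**Figure D2:**
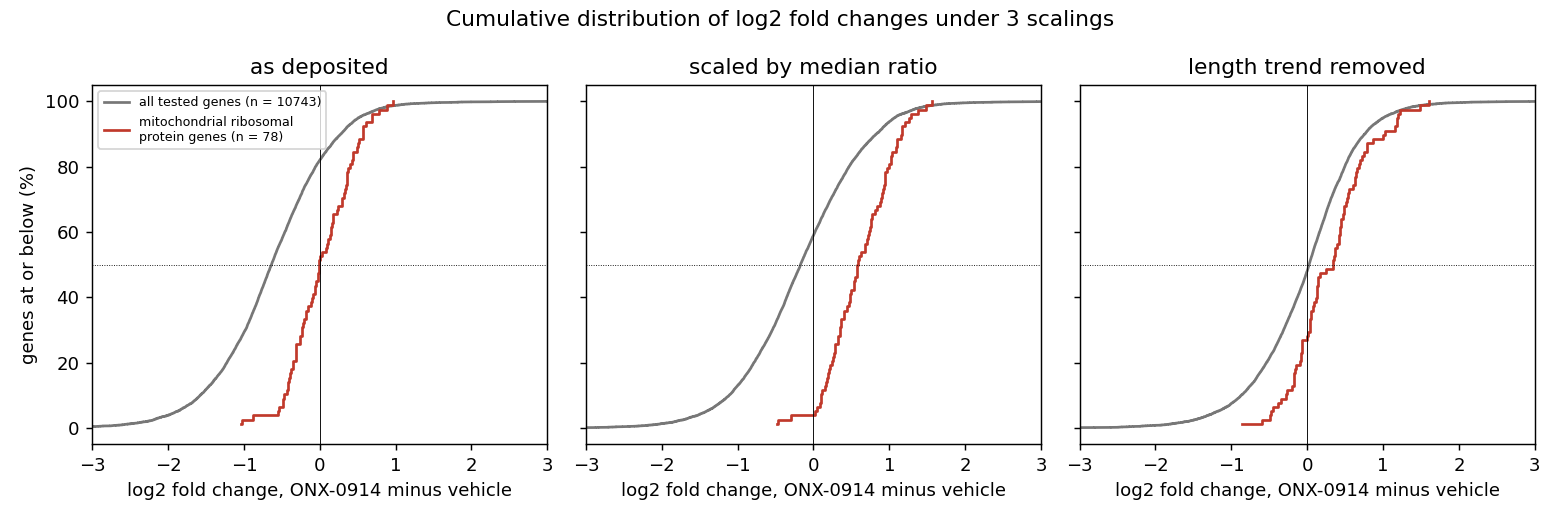
Percent of genes at or below a log2 fold change (x axis, ONX-0914 minus vehicle) for the members (red) and all tested genes (grey) as deposited, scaled by median ratio and after removal of the transcript-length trend. The member medians are -0.0065, 0.58 and 0.35, against -0.64, -0.17 and 0.03 for all genes.

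In single libraries the members moved unequally. Their summed FPKM was 5443, 5762 and 6345 in the vehicle libraries 1, 2 and 4 and 7689, 5414 and 7280 in the treated libraries 1, 3 and 4. ONX-0914 3 was thus below every vehicle library, and the other treated libraries were above all of them. As a share of each library's FPKM sum the members made up 0.57% ± 0.021 (SD, n = 3) in control livers and 0.591% ± 0.0755 (SD, n = 3) in treated ones, a difference smaller than the spread of the treated libraries. The median member deviated from its vehicle mean by 0.12 and 0.08 on the log2 scale in ONX-0914 1 and 4 and by -0.14 in ONX-0914 3. Of the 78 members, 36 were above all vehicle libraries in ONX-0914 1 and 36 in ONX-0914 4, but 15 in ONX-0914 3. Below all vehicle libraries were 27 in ONX-0914 1, 27 in ONX-0914 4 and 37 in ONX-0914 3. A vehicle library also stood apart, since vehicle 4 had 43 members above both other vehicle libraries and 20 below both. These counts per library were not made over all tested genes. The summed neutrophil markers were likewise high in ONX-0914 1 and 4 (2111 and 4670 FPKM) and lowest in ONX-0914 3, but vehicle 4 was also high (1798). Among the 5 markers Ngp differed in ONX-0914 1, at 21.3 FPKM, below vehicle 1 and 4 (25.5 and 61.5). The part of neutrophils in the member values was not tested. Set alone against vehicle, where its own spread is assumed to be that of the vehicle libraries, ONX-0914 3 had 1 member called lower (Mrpl34) and none higher, beside 27.9% and 2.88% of all genes. The median log2 fold change in that fit was -0.14 for the members and -0.38 for all tested genes.

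Promoter windows from RefSeq (GRCm38.p6, 250 bases before to 50 after a start) were found for 69 of the 78 genes. Matches to motifs of factors known at nuclear genes for mitochondrial proteins were counted on both strands. The NRF1 motif, GCGC and TGCGC with any base between them, was in 13 members (18.8%), against 11.9% of tested genes and 5.19% of all genes with a window. The ETS motif CCGGAAG, bound by GABPA among others, was in 26 members (37.7%), against 20.9% and 9.93%. The YY1 motif AAGATGGCG was in 8 members (11.6%), against 3.81% and 1.64%, and the E-box CACGTG in 5 (7.25%), against 11.9% and 8.09%. Of the 8 YY1 matches 6 lay after the start, whereas 13 of 16 NRF1 matches began before it. The median log2 fold change was -0.10 for members with an NRF1 match and 0.04 for those without, 0.17 and -0.04 for ETS, and -0.21 and 0.03 for YY1. These are medians of overlapping sets with no test, and a match is not a bound site.

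The sequences below show 3 called members whose window holds a match before the start, 1 that rose and 2 that fell, then the most abundant member and the member with the most NRF1 matches. They run 5′ to 3′ on the plus strand of GRCm38, end 1 to 25 bases before the RefSeq start where no GENCODE exon lies, and carry the motif in capitals (NRF1 in Mrpl9, Mrpl12 and Mrpl45, ETS in Mrpl34, E-box in Mrpl20).
Mrpl9, chr3:94443198-94443317, fell: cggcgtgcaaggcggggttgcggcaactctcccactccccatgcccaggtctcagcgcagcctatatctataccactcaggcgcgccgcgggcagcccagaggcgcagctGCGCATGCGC
Mrpl34, chr8:71464806-71464925, fell: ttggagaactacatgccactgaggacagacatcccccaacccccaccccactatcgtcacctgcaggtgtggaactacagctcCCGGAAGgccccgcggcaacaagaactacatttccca
Mrpl20, chr4:155802758-155802877, rose: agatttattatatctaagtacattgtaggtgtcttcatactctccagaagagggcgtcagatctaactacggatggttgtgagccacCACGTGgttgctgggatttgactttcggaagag
Mrpl12, chr11:120484493-120484612, not called: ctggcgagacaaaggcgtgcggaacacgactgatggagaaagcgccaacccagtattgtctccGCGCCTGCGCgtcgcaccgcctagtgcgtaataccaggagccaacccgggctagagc
Mrpl45, chr11:97315596-97315715, not called: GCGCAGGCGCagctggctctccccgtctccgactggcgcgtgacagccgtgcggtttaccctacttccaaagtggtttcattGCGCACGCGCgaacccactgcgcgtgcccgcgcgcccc
Mrpl45 has a further NRF1 match 16 bases after its start, and it was 15.6, 17.8 and 19.2 FPKM in the vehicle libraries 1, 2 and 4 and 14.7, 16.5 and 17.7 in the treated libraries 1, 3 and 4 (limma log2 fold change -0.10 with SE 0.22, adjusted p = 0.719). Mrpl57, which rose, holds both an NRF1 and an ETS match, and Mrpl9, which fell, an NRF1 match, so members with the NRF1 motif were called in either direction. Mrpl45 was chosen after its values were seen.

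The 5 genes that rose encode 4 large-subunit proteins and 1 of the small subunit. Mrpl54, a large-subunit protein without a bacterial counterpart, lies on chromosome 10 (GRCm38, 81264713 to 81266934). It was 75.9, 86.2 and 103 FPKM in the vehicle libraries 1, 2 and 4 and 256, 108 and 183 in the treated libraries 1, 3 and 4. Every treated library was above every vehicle library, with ONX-0914 3 only just so (limma log2 fold change 0.96 with SE 0.30, adjusted p = 0.0284). Mrpl57, also of the large subunit and of mitochondrial origin, lies on chromosome 14 (57826234 to 57829296). It was 72.9, 110 and 111 FPKM with vehicle and 263, 115 and 187 with ONX-0914 (0.88, SE 0.31, limma adjusted p = 0.0429). Again ONX-0914 3 sat close to vehicle 2 and 4 while the other treated libraries were well above.

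Mrpl20 has a bacterial counterpart that organises ribosomal RNA early in large-subunit assembly, and its upstream window holds the E-box shown. On chromosome 4 (155802878 to 155809975), it was 135, 140 and 163 FPKM with vehicle and 289, 181 and 305 with ONX-0914 (limma log2 fold change 0.79 with SE 0.24, adjusted p = 0.0239). Mrps7, a primary rRNA-binding protein of the small-subunit head on chromosome 11 (115603925 to 115608036), was 98.9, 118 and 125 FPKM with vehicle and 232, 143 and 187 with ONX-0914 (0.69, SE 0.22, limma adjusted p = 0.0321). Mrpl24, a large-subunit protein with a bacterial counterpart on chromosome 3 (87919506 to 87923672), was 122, 128 and 127 FPKM with vehicle and 212, 159 and 193 with ONX-0914 (0.56, SE 0.19, limma adjusted p = 0.0356). None of these 3 genes had overlapping groups. In GENCODE M21, 594 exon bases of Mrpl24 also belong to Rrnad1 on the other strand, and the counting is not stated to use strand, so reads of the 2 genes cannot be told apart there. These 5 genes stayed called when scaled by median ratio, by quantiles and after removal of the length trend. With libraries scaled to equal sums Mrpl24, Mrpl57 and Mrps7 were no longer called (limma adjusted p = 0.107, 0.0579 and 0.0656). Mrpl57 also missed with a pseudocount of 0.1 (limma adjusted p = 0.0512), and Mrpl54 and Mrpl57 missed without the filter (0.0533 and 0.0762). Scaled by quantiles 17 members were higher in all, beside 10.4% of all genes, and none lower, beside 12.4%.

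The 4 genes that fell all encode proteins with bacterial counterparts. Mrpl3, whose counterpart reaches toward the peptidyl transferase centre, lies on chromosome 9 (105053239 to 105079888). It was 27.5, 31.1 and 28.9 FPKM in the vehicle libraries 1, 2 and 4 and 10.6, 20.2 and 11.8 in the treated libraries 1, 3 and 4 (limma log2 fold change -1.04 with SE 0.27, adjusted p = 0.0138). Mrps2, a protein of the small subunit on chromosome 2 (28468066 to 28471178), was 14.5, 16.9 and 13.2 FPKM with vehicle and 4.57, 9.74 and 6.88 with ONX-0914 (-1.02, SE 0.29, limma adjusted p = 0.0205). Mrpl9, whose bacterial counterpart lies at the base of the L1 stalk, is on chromosome 3, next to the NRF1 match shown (94443318 to 94451130). It was 37.1, 32.8 and 29.6 FPKM with vehicle and 10.9, 26.5 and 18.7 with ONX-0914 (-0.87, SE 0.31, limma adjusted p = 0.0429). In each of the 3 the groups were apart and ONX-0914 3 was the treated library nearest to vehicle.

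Mrpl34, one of the smallest large-subunit proteins and the one shown with an ETS match, behaved otherwise. On chromosome 8 (71464959 to 71465747), it was 135, 139 and 148 FPKM in the vehicle libraries 1, 2 and 4 and 82.7, 95.8 and 111 in the treated libraries 1, 3 and 4 (limma log2 fold change -0.55 with SE 0.19, adjusted p = 0.0404). Here ONX-0914 3 lay between the other treated libraries. None of the 4 falls passed scaled by median ratio, where Mrpl3, Mrps2 and Mrpl9 were at -0.47, -0.48 and -0.30 and Mrpl34 turned to 0.045. With the length trend removed Mrpl34 passed (-0.86, limma adjusted p = 0.0395) and Mrpl3, Mrps2 and Mrpl9 did not (-0.17, -0.48 and -0.49). Mrpl9 also missed with a pseudocount of 0.1 and without the filter (limma adjusted p = 0.0508 and 0.0694), and with equal sums all 4 stayed called.

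The 9 calls also changed when single libraries were left out. Such fits hold fewer libraries, and the part of lost power in the lost calls was not tested. For all genes the last section gives only the range of their counts over the 6 fits. Calls lost by members thus cannot be compared with all genes fit by fit. Without vehicle 1, vehicle 2 or vehicle 4 no member was called, although 5, 9 and 9 members had an unadjusted limma p under 0.05. The share of all genes at that unadjusted threshold is not given here. Without ONX-0914 1 Mrpl3 alone was called, and without ONX-0914 4 Mrpl34 alone. Without ONX-0914 3, 19 members were higher and 11 lower, all 9 included, beside 6.87% and 61.0% of all genes. Over these 6 fits the limma adjusted p of Mrpl54 ran from 0.000909 to 0.112 and that of Mrpl3 from 0.00033 to 0.0659.

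**Figure D3:**
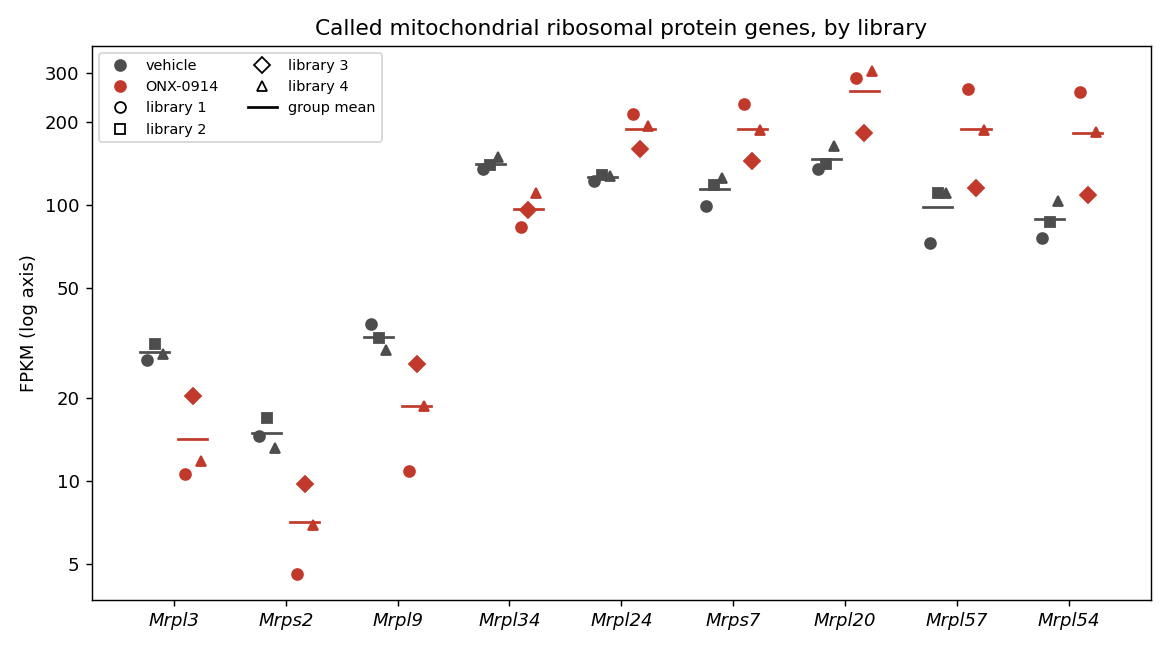
FPKM (log axis) of the 9 called members in each vehicle (grey) and ONX-0914 (red) library, with marker shape for the library number and a line at the group mean. No gene has overlapping groups, and the ONX-0914 3 diamond is the treated value nearest to vehicle in 8 of the 9, all but Mrpl34.

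By subunit, 51 members belong to the large subunit, counting Mrps30 and Mrps18a, which sit there despite their names. Of these 4 rose and 3 fell, with a median log2 fold change of -0.0068. Of the 26 small-subunit members 1 rose and 1 fell, with a median of 0.04. Mrps36 is counted in neither, since its product is known as a part of the 2-oxoglutarate dehydrogenase complex. It was 43.8, 37.1 and 36.0 FPKM with vehicle and 42.3, 29.0 and 28.9 with ONX-0914 (-0.23, limma adjusted p = 0.413), so the groups overlapped. By origin, 48 members have bacterial counterparts, of which 3 rose and 4 fell (median 0.02), and 30 do not, of which 2 rose and none fell (median -0.02). Beside these stand 2.56% of all genes called higher and 43.5% called lower. In the median-ratio scaling 14 members with bacterial counterparts and 12 without rose, and none of either class fell. Over all genes 9.64% were higher and 18.7% lower in that scaling. No test of the difference between these classes was made.

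Among members with particular roles most were not called. Mrpl12 was 303, 210 and 457 FPKM in ONX-0914 1, 3 and 4, on both sides of its vehicle values (limma log2 fold change 0.03 with SE 0.28, adjusted p = 0.932). Mrps12, of the decoding centre, was 39.4, 35.4 and 44.5 FPKM with vehicle and 40.6, 35.8 and 42.2 with ONX-0914 (-0.0062, SE 0.20, limma adjusted p = 0.981). Its treated values lay within the vehicle range. Mrps15, an rRNA-binding protein of the small subunit, was 28.4, 30.9 and 27.6 FPKM with vehicle and 26.2, 35.7 and 23.6 with ONX-0914 (-0.04, SE 0.23), again overlapping.

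Mrpl58 encodes a peptidyl-tRNA hydrolase built into the large subunit that can free stalled peptides. It was 63.5, 68.9 and 78.5 FPKM with vehicle and 131, 73.7 and 105 with ONX-0914 (limma log2 fold change 0.51 with SE 0.24, adjusted p = 0.106). ONX-0914 3 lay inside the vehicle range. Mrps30 was 20.8, 17.6 and 21.8 FPKM with vehicle and 48.3, 20.9 and 34.5 with ONX-0914 (0.69, SE 0.30, limma adjusted p = 0.0862), with the same overlap through ONX-0914 3. Both genes passed scaled by median ratio (1.106 and 1.26), and they also passed after removal of the length trend (1.19 and 1.49). Mrpl36, of the large subunit, was 80.7, 75.2 and 82.0 FPKM with vehicle and 66.5, 56.8 and 68.8 with ONX-0914 (-0.31, SE 0.19, limma adjusted p = 0.196). All its treated values were below vehicle, but it missed the threshold and was at 0.28 scaled by median ratio.

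The 3 paralogs Mrps18a, Mrps18b and Mrps18c, all related to bacterial S18, occupy different sites on the ribosome. Mrps18a was 51.8, 58.3 and 61.7 FPKM with vehicle and 39.5, 53.7 and 44.9 with ONX-0914 (limma log2 fold change -0.32 with SE 0.20, adjusted p = 0.223). Mrps18b was 39.6, 33.4 and 34.1 with vehicle and 43.5, 44.9 and 46.0 with ONX-0914 (0.32, SE 0.19, limma adjusted p = 0.189). Mrps18c was 77.3, 88.2 and 87.1 with vehicle and 100, 86.3 and 96.8 with ONX-0914 (0.16, SE 0.18, limma adjusted p = 0.477). Mrps18b was higher in every treated library, the other 2 overlapped, and none passed as deposited. Scaled by median ratio Mrps18b and Mrps18c passed (0.91 and 0.76), and Mrps18a did not (0.27).

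Of the 4 most abundant genes besides Mrpl12, Mrpl33 was 443, 260 and 457 FPKM in ONX-0914 1, 3 and 4 (log2 fold change 0.57, limma adjusted p = 0.0846). Mrps21 was 430, 246 and 314 (0.25, limma adjusted p = 0.413) and Mrps24 was 225, 152 and 301 (0.08, limma adjusted p = 0.833). In all 3 ONX-0914 3 lay in or below the vehicle range. Among the least abundant, Mrpl47 was 8.21, 12.9 and 8.43 with ONX-0914 (-0.06), Mrpl19 was 12.2, 8.69 and 7.53 (-0.44, limma adjusted p = 0.187) and Mrps9, at 18.2, 17.2 and 19.4 with vehicle, was 9.04, 14.4 and 14.1 (-0.54, limma adjusted p = 0.101). The groups were apart for Mrps9 and overlapped for the other 2.

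Transcript length and level moved with the fold changes and are given beside them. The longest protein-coding transcripts of the members in GENCODE M21 had a median of 1328 bases, against 2906 for all tested genes, and 52 of the 78 were in the shortest quartile (up to 1858 bases). In that quartile the median log2 fold change was -0.16 over all genes and 0.05 over the members. It was -0.59 and 0.25 in the next quartile (8 members), -0.80 and -0.09 in the one after (13 members) and -0.88 and -0.25 in the longest (5 members). Across the 78 members the fold change had a Spearman correlation of -0.31 with length and of 0.43 with vehicle level; the points share the same libraries, and longer members had lower levels (-0.39). Over all tested genes these were -0.40 and 0.07. By mean FPKM, 60 members were in the highest quartile, where the median was -0.23 over all genes and 0.15 over the members. There 5 members were higher and 1 lower, beside 7.22% and 31.9% of all genes in that quartile. The other 18 were in the quartile below, with medians of -0.66 and -0.38. Of these 0 were higher and 3 lower, beside 1.49% and 43.3%. With a smooth length trend taken from each library, 13 members rose and 1 fell (9.65% and 11.5% of all genes), with a median of 0.35 against 0.03. In that fit the 13 held all 5 genes that rose as deposited. The part of RNA quality in these values was not tested.

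**Figure D4:**
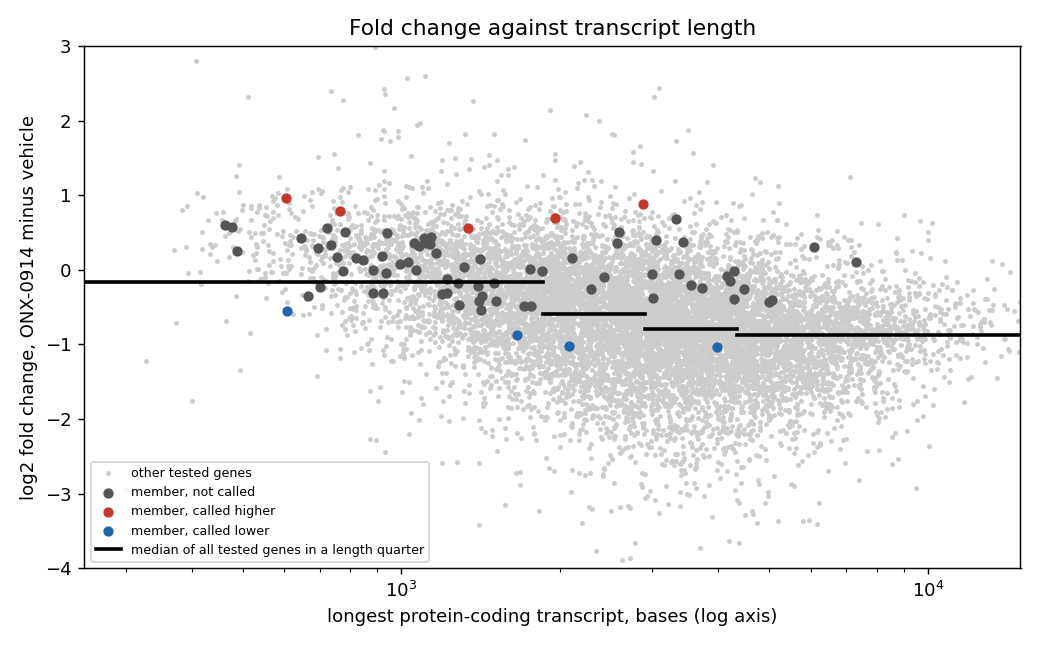
Log2 fold change (ONX-0914 minus vehicle, y axis) against the longest protein-coding transcript in bases (log axis) for the members (large dots) and the other tested genes (grey), with black lines at the median of all genes in each length quartile. The medians of all genes go from -0.16 in the shortest to -0.88 in the longest quartile, and 52 members lie in the shortest.

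The proteins of the same ribosome that carry other symbols gave 2 rises and 1 fall among 5. Gadd45gip1, a large-subunit protein, was 40.8, 42.7 and 41.6 FPKM in the vehicle libraries 1, 2 and 4 and 125, 54.8 and 84.6 in the treated libraries 1, 3 and 4 (limma log2 fold change 0.99 with SE 0.29, adjusted p = 0.0215). Aurkaip1, of the small subunit, was 114, 133 and 154 FPKM with vehicle and 289, 160 and 260 with ONX-0914 (0.79, SE 0.26, limma adjusted p = 0.032). Both pairs of groups were apart. Ptcd3, a pentatricopeptide repeat protein of the small subunit, was 16.9, 18.5 and 16.4 FPKM with vehicle and 6.47, 12.2 and 8.55 with ONX-0914 (-0.90, limma adjusted p = 0.024), and it did not pass scaled by median ratio (-0.34). Dap3, a GTP-binding small-subunit protein, had a log2 fold change of 0.09 (limma adjusted p = 0.705).

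Genes that build and serve the mitochondrial ribosome were called lower more often than higher in each list, as were all tested genes. The shares called lower were 32.1% for assembly, 40% for translation factors and 31.6% for synthetases. Over all genes 43.5% were lower and 2.56% higher. Of 28 assembly and rRNA modification genes 1 rose and 9 fell, with a median log2 fold change of -0.34. Ddx28, a helicase of large-subunit assembly, rose from 9.02 ± 0.55 to 18.8 ± 3.46 FPKM (SD, n = 3 each; 0.97, limma adjusted p = 0.0106). Trmt2b, an RNA methyltransferase, fell from 11.8 ± 1.53 to 2.83 ± 0.39 (n = 3 each; -1.74, limma adjusted p = 0.00184). Of 15 translation factors none rose and 6 fell (median -0.62), among them Guf1, a GTPase of elongation (-1.24), while Tufm, the elongation factor that delivers tRNA, was 57.3 ± 2.42 and 56.2 ± 4.80 FPKM (-0.03, limma adjusted p = 0.902). Of 19 mitochondrial aminoacyl-tRNA synthetases and partners none rose and 6 fell (median -0.60). All these are to be read beside the 43.5% of all genes called lower. Scaled by median ratio, 3 assembly genes rose and 3 fell, 2 translation factors rose and 1 fell, and 2 synthetases rose and none fell. In that scaling 9.64% of all genes were higher and 18.7% lower.

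Of 20 genes of mitochondrial DNA transcription and RNA processing none rose and 5 fell, with a median of -0.36, beside 43.5% of all genes called lower. Scaled by median ratio 2 rose and 2 fell, with a median of 0.11, beside 9.64% and 18.7% of all genes. Tfam, which packages mitochondrial DNA and starts its transcription, was 36.1, 35.6 and 35.3 FPKM in the vehicle libraries 1, 2 and 4 and 6.14, 18.4 and 11.4 in the treated libraries 1, 3 and 4. The groups were far apart (limma log2 fold change -1.61 with SE 0.34, adjusted p = 0.00621, or -1.05, adjusted p = 0.0322, scaled by median ratio). After removal of the length trend Tfam missed the threshold (-0.74, limma adjusted p = 0.073). Tfb2m, its partner at the mitochondrial promoters, was 14.8, 15.4 and 14.7 FPKM with vehicle and 1.84, 7.85 and 2.31 with ONX-0914 (-1.87, SE 0.41, limma adjusted p = 0.00703), and it passed in both other scalings (-1.38 and -1.22). Polrmt, the mitochondrial RNA polymerase, had a log2 fold change of -0.31 (limma adjusted p = 0.347), and Lrpprc, which stabilises mitochondrial mRNA, one of -0.70 (limma adjusted p = 0.0306). Lrpprc was at -0.13 scaled by median ratio and at 0.19 after removal of the length trend, called in neither.

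Of 10 nuclear regulators 4 fell and none rose, with a median of -0.84, a share close to the 43.5% of all genes called lower. Scaled by median ratio 2 fell (median -0.41), and after removal of the length trend 1 rose and 1 fell (median 0.04). Gabpa, an ETS-family factor of mitochondrial genes, was 11.98, 10.6 and 11.4 FPKM with vehicle and 1.89, 4.83 and 0.92 with ONX-0914 (limma log2 fold change -1.95 with SE 0.39, adjusted p = 0.00504). Gabpa also passed in the median-ratio scaling (-1.49) and after removal of the length trend (-1.03). Ppargc1a, a coactivator of mitochondrial biogenesis, was 1.56, 1.59 and 1.76 FPKM with vehicle and 0.36, 0.48 and 0.14 with ONX-0914 (-0.999, limma adjusted p = 0.00387), at levels close to the filter of 1 FPKM. Ppargc1a was also called lower scaled by median ratio (-0.75, limma adjusted p = 0.0195), but it was at -0.09 once the length trend was removed. Esrra, an orphan nuclear receptor of the same programme, fell by 1.15 on the log2 scale but was not called scaled by median ratio (-0.61) or after removal of the length trend (-0.57). The factor gene Nrf1 missed the threshold (-0.53, limma adjusted p = 0.0893).

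Import genes and chaperones behaved unevenly. Of 22 protein import genes 3 fell and none rose (median -0.10), including Timm23, the channel of the inner membrane (-1.29, limma adjusted p = 0.0101), and Hspa9, the chaperone of its motor (-1.26), beside 43.5% of all genes called lower. In the median-ratio scaling 6 import genes rose and none fell, with a median of 0.49. Over all genes 9.64% were higher and 18.7% lower there. Timm23 was not called there (-0.70), but it was called lower after removal of the length trend (-1.16, limma adjusted p = 0.0437). Hspa9 was called neither by median ratio (-0.66) nor after removal of the length trend (-0.51). Of 11 chaperones and proteases 4 fell and 1 rose: Clpx, the unfoldase of the Clp protease, was at -1.36 while Clpp, its proteolytic partner, was at 0.69 (limma adjusted p = 0.0169 and 0.039). Clpp stayed called in both other scalings, and Clpx in neither (-0.76 and -0.63). Among 82 cytosolic ribosomal protein genes 14 rose and none fell, with a median of 0.36, beside 2.56% of all genes called higher. In the median-ratio scaling 61 of them rose, with a median of 0.95, beside 9.64% of all genes called higher in that scaling. Transcripts encoded by mitochondrial DNA were not analysed here.

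**Figure D5:**
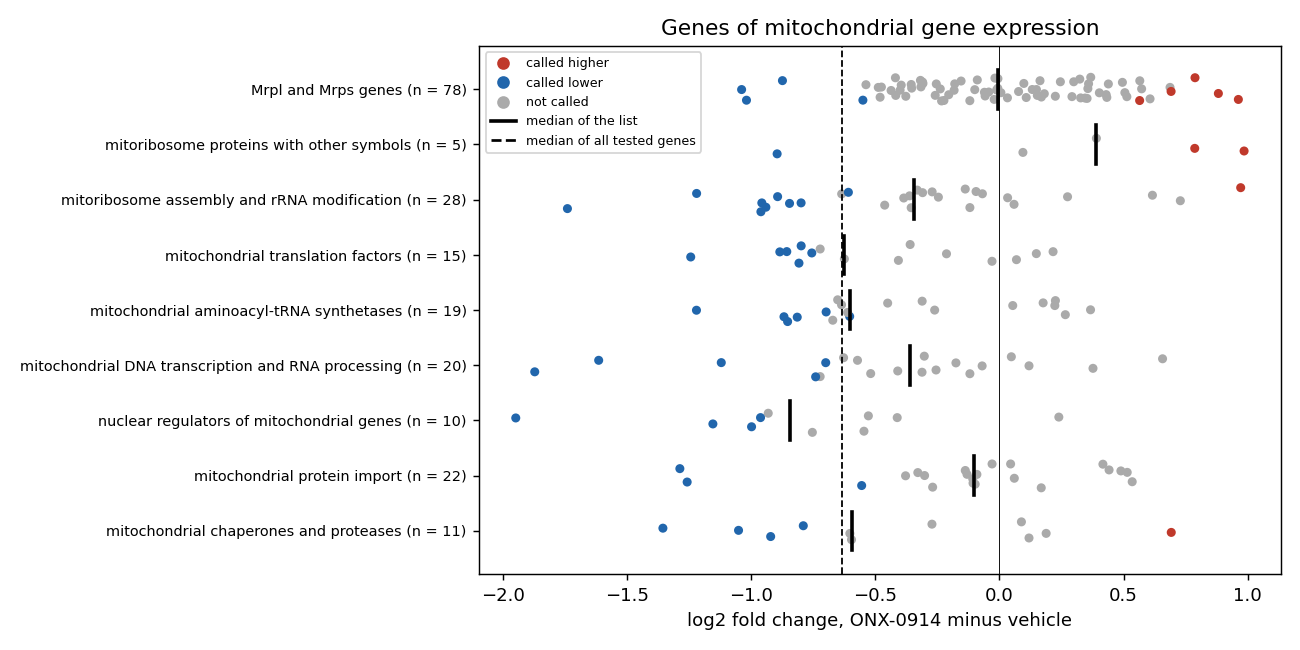
Log2 fold change (ONX-0914 minus vehicle, x axis) of single genes in the members and in 8 related lists, red where called higher and blue where called lower, with a thick line at each list's median. The dashed line marks the median of all tested genes at -0.64; the member median is -0.0065, and the regulators' is -0.84.

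Many members start back to back with another gene. A coding gene on the other strand begins within 1000 bases upstream, or with an overlap of up to 500 bases, at 26 members in GENCODE M21. One such pair consists of 2 members, Mrpl46 and Mrps11, whose log2 fold changes were 0.34 and 0.36. They share 173 exon bases, where reads of the pair cannot be told apart. Of 20 tested partners that are not members 1 rose and 2 fell, with a median log2 fold change of -0.24, against -0.01 for the members beside them. Over all genes 2.56% were higher and 43.5% lower. Mrpl49 and Fau, a cytosolic ribosomal protein gene 59 bases away, were at -0.49 and 0.61 (limma adjusted p = 0.157 and 0.0566). Mrpl32 and the proteasome gene Psma2 were at -0.38 and 0.19, and Mrpl36 and Ndufs6, of respiratory complex I, at -0.31 and -0.03. None of these 6 genes was called. The 3 pairs were picked for the partners' roles after their values were seen.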

How the data were processed

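Liver RNA of 6 libraries was analysed, 3 per group. Per the labels' protocols, RNA was extracted with TRIzol and mRNA was enriched and sequenced. Per the submitters' processing notes the tools included HISAT2 2.0.1, edgeR, featureCounts 1.6.0, cutadapt 1.11 and FastQC 0.11.5, and the builds named were GRCm38 and mm10, without roles. Which annotation was counted is not given in these sources. The authors deposited FPKM values, a unit read from the values, rounded and with scaling not stated. Absolute depth is therefore unknown.

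Genes above 1 FPKM in at least 3 libraries were tested on log2(FPKM + 1) with limma 3.58.1 in R 4.3.3 (variance trend, two-sided, Benjamini-Hochberg over all 10743 genes, called under 0.05), which understates changes of low genes. Simulated data with known changes were used to test the fit. The median-ratio scaling used the 7943 genes above 1 FPKM in every library. The length trend was a lowess fit (span 0.3) per library over GENCODE M21 transcript lengths, available for 97.6% of the genes, and its removal also centres libraries.

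Named were all called members, the 4 most and 4 least abundant, 12 fixed members and up to 4 called genes per related list, not all printed. Members and lists were chosen with earlier results of these data known. GENCODE overlaps and RefSeq promoters were added as descriptions. Exons of 31 members overlap another gene. Alternatives were other pseudocounts, filters and scalings, a robust fit, a replicate block and leaving out libraries.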

Additional observations from a re-analysis of the deposited data

How the results depend on the processing

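Absolute depth is unknown, and with 3 libraries per group small changes of single members could not be resolved. Which members are called depends on the scaling and on single libraries. Of the alternatives, the median ratio over genes above 0 in every library was chosen after the data were seen, and the others were planned with earlier results known. The causes of the differences were not tested, except that fits without a library hold fewer samples.

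Members higher and lower, with their median log2 fold change, were 26, 0 and 0.58 scaled by median ratio, 38, 0 and 0.80 with the median ratio over genes above 0, and 17, 0 and 0.41 quantile normalized. They were 13, 1 and 0.35 with the length trend removed. With equal sums 2 were higher and 5 lower, at a median of -0.16, and without a filter 3 were higher and 3 lower. In ONX-0914 3 alone the median was -0.14. Leaving out 1 library gave between 0 and 19 higher and between 0 and 11 lower.

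Over all genes, higher and lower were 1036 and 2007 scaled by median ratio, 1538 and 1471 with the median ratio over genes above 0, 1118 and 1334 quantile normalized, and 1037 and 1232 with the length trend removed. With equal sums 171 were higher, and in ONX-0914 3 alone 2992 were lower. Leaving out 1 library gave between 78 and 730 higher and between 1804 and 6485 lower.

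With the replicate number as a block 604 genes and 13 members were higher, and 6 members were lower. The count of all genes lower in that fit is not given here. Every number takes a term of its own, which leaves little from which to estimate the spread. Its larger counts are therefore no added support for the calls. All 5 members called higher without it were among the 13. Vehicle 2 and ONX-0914 3 have numbers of their own, so they carry no weight in that group effect, which rests on numbers 1 and 4. Of the 4 members called lower without it Mrpl34 was not called with it. Numbers 1 and 4 alone are shared, their libraries' deviations correlated at 0.0011 and 0.13, and nothing in the labels says that a number pairs animals.

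Scalings that shift all genes changed the sign of many members: 38 of 78 were above 0 as deposited and 75 scaled by median ratio. Among the named members, scaled by median ratio Mrpl19, Mrpl34, Mrpl36, Mrpl47, Mrps12, Mrps15, Mrps18a, Mrps36 and Mrps9 were at 0.11, 0.045, 0.28, 0.48, 0.58, 0.54, 0.27, 0.35 and 0.024. With the median ratio over genes above 0 they were at 0.32, 0.26, 0.50, 0.68, 0.79, 0.75, 0.49, 0.57 and 0.23. Quantile normalized, the same without Mrpl34 were at 0.29, 0.012, 0.68, 0.47, 0.53, 0.10, 0.25 and 0.13. Mrpl12 and Mrps24 were at -0.12 and -0.080 with equal sums. Mrpl19, Mrpl47 and Mrps21 were at 0.48, 0.75 and -0.20 with the length trend removed. In ONX-0914 3 alone Mrpl12, Mrpl47, Mrps15, Mrps21 and Mrps24 were at -0.51, 0.33, 0.30, -0.14 and -0.44.
Leaving out 1 library gave -0.25 to 0.31 for Mrpl12, -0.16 to 0.33 for Mrps24, -0.25 to 0.048 for Mrpl47, -0.21 to 0.078 for Mrps15 and -0.085 to 0.076 for Mrps12.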
